A study of Mus musculus with 15 samples.

Results

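The interferon-stimulated genes described here are 38 genes that type I interferon induces in many cell types. They were taken as a fixed list and found by Ensembl ID among the 54418 gene IDs of the count table. Of the 38, 36 passed the filter on low counts and were tested among 14925 genes. Ifit3, with 31 counts over all 15 libraries, and Ifi44, with 25, did not pass. The study transplanted organoids, cultured mouse colon cancer cells grown as small spheres, into the colon of C57Bl6 mice with an intact immune system, and set up organoids again from the tumours. RNA was sequenced from organoids of liver metastases after transplant rounds 1, 2 and 3 (Met1, Met2, Met3) and of primary colon tumours after rounds 2 and 3 (Primary2, Primary3), with 3 libraries each. All 15 libraries carry the genotype AKP, which the labels do not spell out. The labels do not say whether the 3 libraries of a group come from separate mice, lines or cultures, so every p-value measures only the spread between these samples. Removal of host cells is not described in them.

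Cells that sense foreign or misplaced nucleic acid secrete type I and type III interferons. The interferon receptors signal through the kinases Jak1 and Tyk2 to a complex that contains Stat2 and Irf9, which binds the interferon-stimulated response element, a DNA element built from GAAA repeats, and switches on the induced genes. Their products sense RNA, block translation, degrade RNA, modify proteins with ISG15, restrict viruses at membranes, and feed back on the pathway. Intestinal epithelium is known to respond to both interferon types.

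Total counts ran from 14122203 to 21306543 per library, and the share taken by the ribosomal RNA gene CT010467.1 ran from 2.01% to 7.52%. Levels are given as CPM, counts scaled to a common library size with edgeR's TMM factors. Fold changes are fitted log2 values. Their standard error (SE) was not fitted but worked back from each change and its F statistic in edgeR's quasi-likelihood test. An SE of this kind is approximate, above all for genes with few counts. A gene was called where that test gave an adjusted p under 0.05 over all 14925 genes. Values of libraries stand in the order of replicates 1, 2 and 3. Each comparison was refitted under 21 alternatives, 15 of which leave out 1 library; where a call was lost or gained, the adjusted p under that alternative stands in parentheses. These are bulk samples, in which fewer cells of a type and less RNA per cell cannot be told apart.

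Across the 38 genes the level per kb of merged exons, as the mean of 15 libraries, spanned a wide range. Ifitm3 stood at the top with 465 CPM per kb, ahead of Bst2 at 58.1, Irf1 at 16.7, Ifi35 at 15.9, Isg15 at 14.9 and Oasl1 at 11.5 CPM per kb. At the lower end Rsad2, Ifit2, Oas2, Cmpk2, Mx2, Ifit3 and Ifi44 lay between 0.160 and 0.0151 CPM per kb. The changes of the lowest of these genes rest on few reads. Ifit1 had 225 counts over the 15 libraries, Rsad2 184 and Oas2 133.

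The genes moved with the library as well as with the group. For each gene the log2(CPM + 0.5) in a library was set against the gene's mean over the 15 libraries, and the median of this deviation was taken over the 36 genes. Met3 replicate 2 had a median of 1.0, with 29 of 36 genes above their own mean, and it was the highest of all 15 libraries for 14 genes. Primary2 replicate 1 stood at the other end with -0.69, with 3 of 36 genes above their mean, and it was the lowest library for 16 genes. Primary2 replicate 2 had -0.47 and Primary3 replicate 1 -0.30, and the other 11 libraries lay between -0.14 and 0.34. Met3 replicate 2 had a total of 18584990 counts and a ribosomal RNA share of 4.09%, both inside the range of the other libraries. The replicates of a group were farther apart for these genes than for all genes tested, which were not matched to the list for level. How much the low counts of genes such as Oas2 and Mx2 added to this spread was not tested. The median SD of log2(CPM + 0.5) within a group was 0.696 in Met3 against 0.224 over all 14925 genes, 0.582 against 0.223 in Primary2, 0.55 against 0.215 in Met1, 0.536 against 0.307 in Met2 and 0.389 against 0.195 in Primary3.

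**Figure D1:**
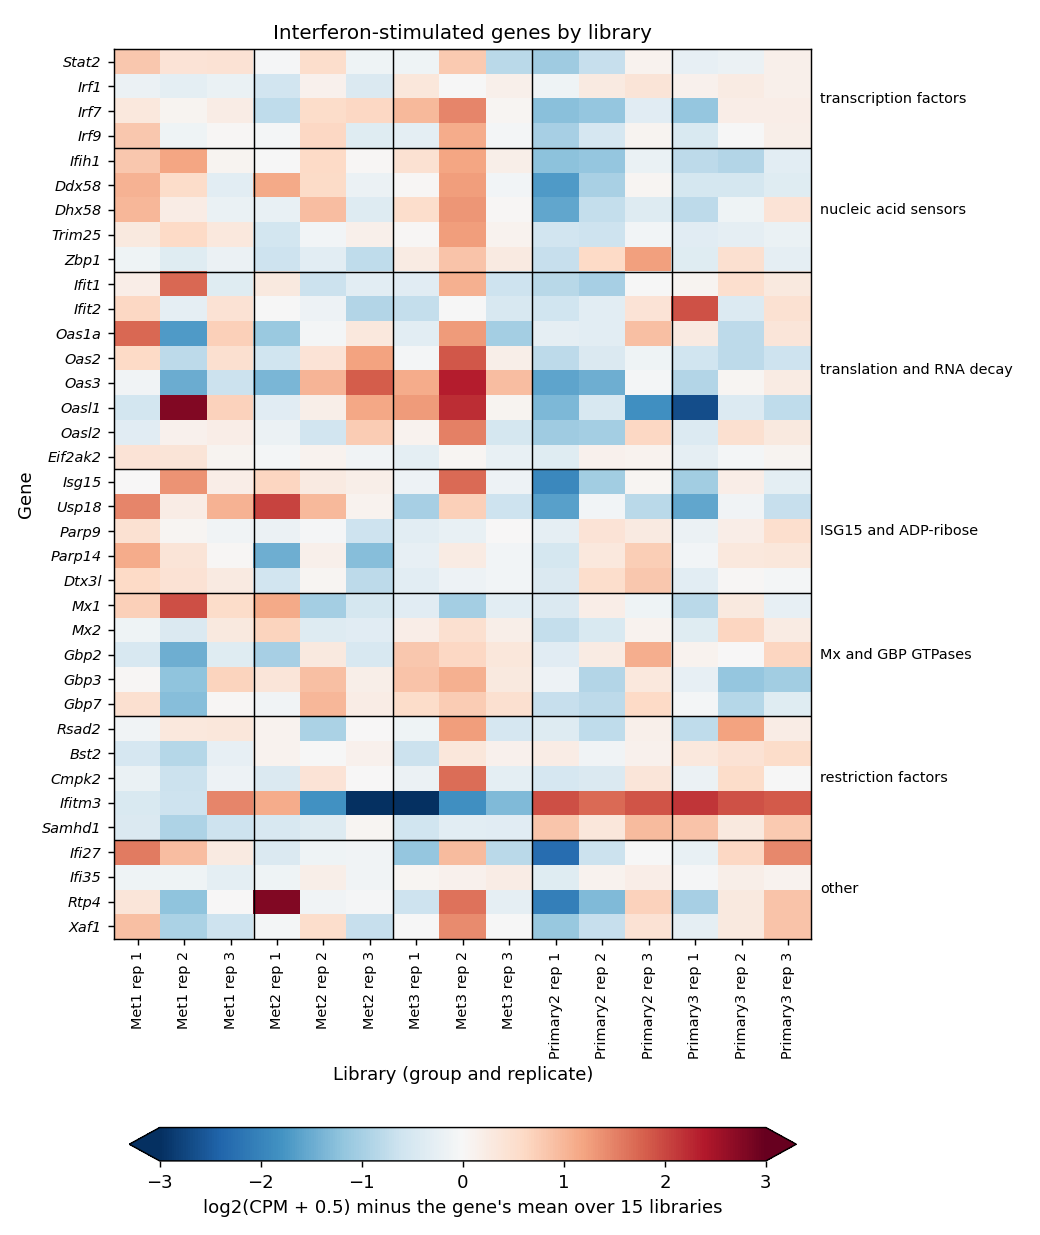
Colour shows log2(CPM + 0.5) of each of the 36 tested genes (rows, by role) in each of the 15 libraries (columns, by group), minus the gene's mean over the 15 libraries. Met3 replicate 2 is red in most rows, Primary2 replicate 1 is blue in most, and Ifitm3 and Samhd1 are red in all 6 primary tumour libraries.

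**Figure D2:**
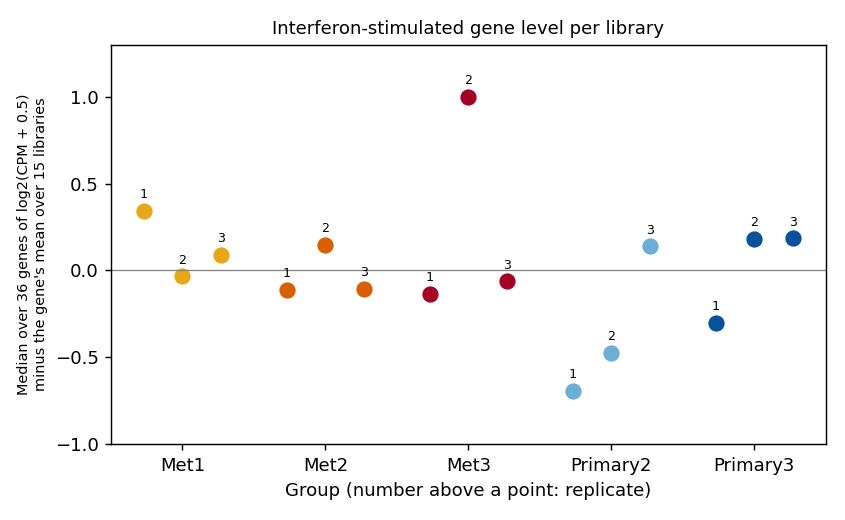
Each point is 1 library, numbered by replicate; the vertical axis is the median over 36 genes of log2(CPM + 0.5) minus the gene's mean over 15 libraries. Met3 replicate 2 lies at 1.0 and Primary2 replicate 1 at -0.69, while the rest of both groups lies nearer to 0.

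Comparison of metastasis with primary tumour organoids in rounds 2 and 3 (6 against 6 libraries) asked how the pathway differed by site of origin. Samhd1 and Ifitm3, both restriction factors, were lower in organoids of metastases. Irf7, the sensors Ifih1 and Ddx58, Oas2, Oas3, Oasl1, Usp18 and Gbp3 were higher. So 8 genes were higher and 2 lower of 36 (27.8%), where 30.4% of all 14925 genes were called, 14.3% higher and 16.1% lower. The median log2 change of the 36 genes was 0.38, against 0.01 over all genes tested. The share called was near that over all genes, so it is no result about the list as a whole. Counts by role below stand against the same shares and are no result about a role. In 4 genes the libraries of both sides did not overlap, namely Ifih1 and Oasl1 (higher) and Ifitm3 and Samhd1 (lower), against 12.2% of all genes. Without Met3 replicate 2 the count was 3, namely Samhd1, Ifih1 and Ifitm3. It was 5 without Primary2 replicate 2, 6 without Primary3 replicate 2, and 11 without Met2 replicate 1, a library that stands apart in cell type markers.

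**Figure D3:**
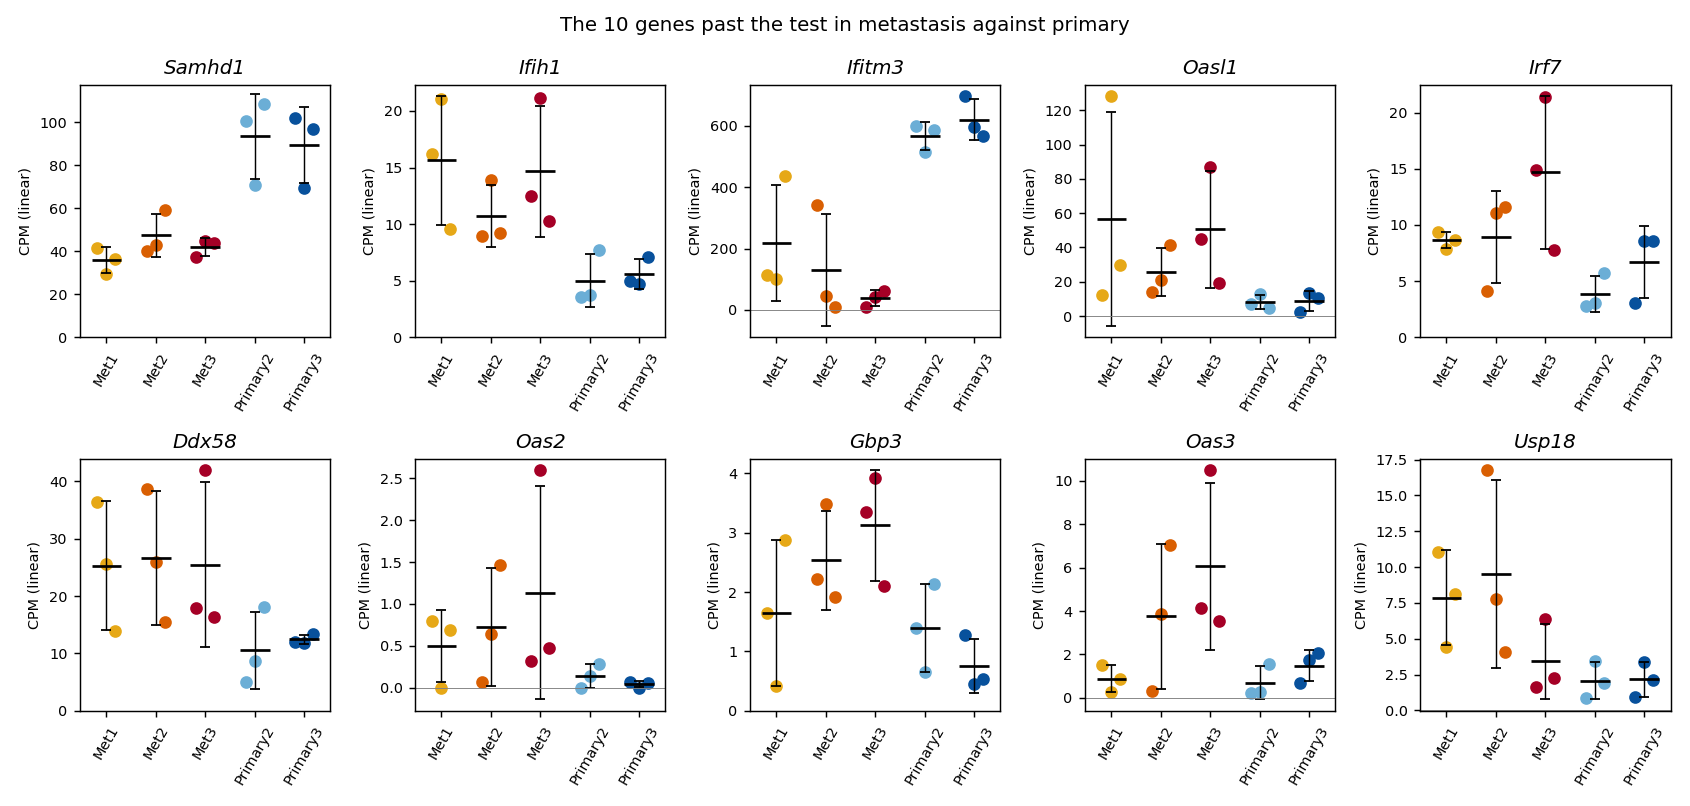
CPM on a linear scale, 1 panel per gene for the 10 genes called in metastasis against primary; points are libraries, black bars the group mean and whiskers the SD (n = 3), which can reach below 0. Samhd1 and Ifitm3 lie lower in the metastasis groups without overlap, and for most of the higher genes Met3 replicate 2 is the highest point of Met3.

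The cells carried epithelial markers and few defining markers of other cells. All 10 epithelial markers were tested, with a summed level of 6504 to 15310 CPM in Met2 and 12200 to 16240 in Met3, against 6170 to 8931 in Primary2 and 7243 to 8685 in Primary3. Of these 10, 5 were higher and 1 lower in metastasis against primary (60%, against 30.4% of all genes). Met2 replicate 1, at 6504 CPM, lay inside the primary range and apart from the other 2 libraries of Met2, at 14370 and 15310 CPM. The 15 immune markers summed to 719 to 777 CPM in Met2, 547 to 1054 in Met3 and 262 to 782 in Met1, against 75.0 to 148 in Primary2 and 117 to 277 in Primary3. Only 4 of them passed the filter. In metastasis against primary Ly6g (2.55, adjusted p = 0.000234) and Cd68 (0.97, adjusted p = 0.0266) were higher, Csf1r (-4.46, adjusted p = 0.00068) was lower, and S100a8 (-0.67, adjusted p = 0.419) was not called. Ly6g made up most of these sums, from 66.7 to 1032 CPM per library. Without Ly6g and Cd68, the 2 called higher, the immune markers summed to 25.4 to 33.0 CPM in Primary3 and 2.57 to 6.64 in Met3. Those sums were 3.38 to 13.03 CPM in Primary2 and 2.28 to 12.8 in Met2. Leaving out the 2 higher genes favours the other order by choice. In Primary3 the rest was mostly S100a8 (27.9, 17.1 and 23.7 CPM) and Csf1r (4.38, 7.9 and 5.83 CPM). Cd4, Adgre1 and Ncr1 were at 0 in every library, Cd3e had 2 counts in all, and Ptprc, the marker of all leukocytes, reached at most 0.376 CPM. Of the 5 plasmacytoid dendritic cell markers, 2 were tested. Tcf4, from 38.3 to 322 CPM with its highest level in Met2 replicate 1, was higher in metastasis against primary (0.98, adjusted p = 0.0411), Siglech was at 0, and Bst2 belongs to the list itself. Fibroblast and endothelial markers summed to 0.734 to 46.5 CPM (6.3 CPM in Met2 replicate 1) and hepatocyte markers to 7.07 to 77.7 CPM, with the highest of both in Met1. The part of these markers in the changes of the list was not tested.

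Among the transcription factors, Irf7 was the only one of 4 called. Irf7 (ENSMUSG00000025498, chr7:141262706-141266481, minus strand) drives the interferon genes themselves. It stood at 2.79, 3.01 and 5.74 CPM in Primary2 and 3.03, 8.55 and 8.54 CPM in Primary3, and at 4.16, 11 and 11.6 CPM in Met2 and 14.9, 21.4 and 7.76 CPM in Met3. Met2 replicates 2 and 3 and Met3 replicates 1 and 2 were above every primary library, while the other 2 metastasis libraries lay within the primary range. The log2 change was 1.17 ± 0.35 (SE), adjusted p = 0.0234, and this call was lost without Primary2 replicate 1 (0.0527) or 2 (0.056) or Met3 replicate 2 (0.062), with a range of 0.00436 to 0.062 over the alternatives. Stat2 (ENSMUSG00000040033, chr10:128270559-128292849, plus strand), a subunit of the complex that binds the response element, was not called. It had 7.09, 9.36 and 16.5 CPM in Primary2, 12.9, 13.6 and 17.2 in Primary3, 14.9, 22.4 and 14 in Met2 and 13.9, 26.8 and 8.54 in Met3. The sides overlapped widely, with a log2 change of 0.41 ± 0.27 (SE) and an adjusted p of 0.279. Its partner Irf9 (log2 change 0.52, adjusted p = 0.205) and Irf1 (-0.24, adjusted p = 0.179) were not called either.

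Of the 5 nucleic acid sensors, Ifih1 and Ddx58 rose and none fell, where 14.3% of all genes were called higher and 16.1% lower. The median log2 change of the 5 was 1.06. Ifih1, the gene of MDA5, which binds long double-stranded RNA (ENSMUSG00000026896, chr2:62595798-62646255, minus strand), had 3.55, 3.75 and 7.73 CPM in Primary2 and 4.99, 4.69 and 7.13 in Primary3. In organoids of metastases it had 8.98, 13.9 and 9.25 CPM in Met2 and 12.5, 21.2 and 10.3 in Met3. Every metastasis library lay above every primary library, the closest being Met2 replicate 1 and Primary2 replicate 3. The log2 change was 1.24 ± 0.28 (SE) with an adjusted p of 0.00532, and Ifih1 kept its call in all 21 alternative fits (0.00014 to 0.0161). Ddx58, the gene of RIG-I, which binds RNA with a terminal triphosphate (ENSMUSG00000040296, chr4:40203773-40239828, minus strand), had 5.0, 8.62 and 18 CPM in Primary2, 12, 11.9 and 13.4 in Primary3, 38.6, 25.9 and 15.4 in Met2 and 17.9, 42 and 16.4 in Met3. Primary2 replicate 3 exceeded 3 of the 6 metastasis libraries. Its log2 change was 1.18 ± 0.36 (SE) (adjusted p = 0.0256), and the call was lost with the replicate number as a block (0.0529) and without Primary2 replicate 2 (0.0591), Primary3 replicate 1 (0.0535) or 2 (0.0541) or Met3 replicate 2 (0.0713), over a range of 0.00431 to 0.0713. The third receptor of this helicase family, Dhx58 (LGP2), had a log2 change of 1.05 (adjusted p = 0.0608). Trim25, a ubiquitin ligase acting on RIG-I signalling, had 0.57 (adjusted p = 0.0528) and Zbp1, a sensor of Z-form nucleic acid, -0.51 (adjusted p = 0.368).

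Promoters give context to these genes. RefSeq starts (GRCm38.p6) were found for 28 of the 38 genes, and windows from 250 bases before to 50 bases after each start were searched on both strands. The core of the response element, taken as GAAA, any 2 bases and GAAA again, occurred in 15 of the 28 genes (53.6%), where 3.99% of all 27025 genes in that table hold it. A match describes letters only, and binding was not measured. Genes with a response element match were Bst2, Ddx58, Eif2ak2, Gbp2, Gbp3, Gbp7, Ifih1, Ifit1, Ifit3, Ifitm3, Isg15, Oas1a, Oas3, Rsad2 and Stat2. They include genes that rose, Ifitm3, which fell, and genes not called. The windows of Samhd1, the other gene that fell, and of Irf7, Oasl1 and Trim25 hold no match. In the sequences printed here, read 5′ to 3′ along the gene's strand, capitals mark a match to the response element or its reverse complement, and positions count from 1 at the transcribed start. For the sensors, the match lies just inside the transcript, at 33 to 42 in Ifih1 (chr2:62646206-62646235, minus strand) and 3 to 12 in Ddx58 (chr4:40239804-40239833, minus strand).
Ifih1: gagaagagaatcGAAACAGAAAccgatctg
Ddx58: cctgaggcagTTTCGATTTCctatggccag

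Among 8 tested genes that act on translation and RNA decay, Oas2, Oas3 and Oasl1 rose and none fell, with a median log2 change of 0.42. Of all genes, 14.3% were called higher and 16.1% lower. Oas2 and Oas3 make the oligoadenylates that switch on RNase L. Oas3 (ENSMUSG00000032661, chr5:120753098-120777661, minus strand) had 0.215, 0.278 and 1.56 CPM in Primary2 and 0.674, 1.74 and 2.06 in Primary3, and 0.335, 3.87 and 7.05 in Met2 and 4.15, 10.5 and 3.56 in Met3. Only Met2 replicate 1 fell inside the primary range, and the log2 change was 2.22 ± 0.70 (SE) (adjusted p = 0.0302). The Oas3 call was lost without Primary2 replicate 1 (0.0625) or 2 (0.0695), Met2 replicate 3 (0.0711), Primary3 replicate 1 (0.0704) or 2 (0.0569) or Met3 replicate 2 (0.0733), over a range of 0.00458 to 0.0733. The change was 2.95 without Primary2 replicate 3. Oas2 (ENSMUSG00000032690, chr5:120730333-120749853, minus strand), its neighbour on the same strand, had 11 counts in the 6 primary libraries and 91 in the 6 metastasis libraries. Its level was 0, 0.139 and 0.284 CPM in Primary2, 0.0674, 0 and 0.0589 in Primary3, 0.067, 0.645 and 1.47 in Met2 and 0.323, 2.6 and 0.472 in Met3. Met3 replicate 2 alone was far above the rest and Met2 replicate 1 lay within the primary range. The fitted log2 change of 3.40 ± 1.04 (SE) had an adjusted p of 0.026. The Oas2 call was lost without Primary2 replicate 2 (0.0536), Met2 replicate 3 (0.0644), Primary3 replicate 1 (0.0513), 2 (0.0623) or 3 (0.0559) or Met3 replicate 2 (0.077). The range was 0.00806 to 0.077 over the 20 alternative fits that gave Oas2 an adjusted p. Without Met3 replicate 2 the change was 2.66. The Oas1 genes of the mouse are near-identical copies, so how reads were split among them is uncertain for Oas1a, which was not called (-0.07, adjusted p = 0.943).

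Oasl1 (ENSMUSG00000041827, chr5:114923240-114937915, plus strand), an OAS-like protein without synthetase activity that is known to hold back translation of Irf7 in mice, had 6.88, 13 and 4.79 CPM in Primary2 and 2.49, 13.7 and 10.6 in Primary3. It had 14.3, 20.9 and 41.3 CPM in Met2 and 45, 87.1 and 19.6 in Met3. All metastasis libraries lay above all primary libraries, although the closest pair, Met2 replicate 1 and Primary3 replicate 2, was nearly level. Its log2 change was 2.06 ± 0.60 (SE) with an adjusted p of 0.0212, lost without Primary2 replicate 3 (0.0542) or Met3 replicate 2 (0.0549), over a range of 0.000914 to 0.0549. Ifit1 (ENSMUSG00000034459, chr19:34640871-34650009, plus strand), which binds RNA lacking the host cap methylation, was not called. Its levels were 0.161, 0.0926 and 0.664 CPM in Primary2, 0.741, 1.16 and 0.943 in Primary3, 0.938, 0.258 and 0.441 in Met2 and 0.431, 1.96 and 0.262 in Met3. The sides overlapped, and the log2 change of 0.35 ± 0.67 (SE) (adjusted p = 0.721) turned to -0.31 without Met3 replicate 2. Eif2ak2, the gene of the kinase PKR, was nearly level, with a log2 change of -0.03 ± 0.11 (SE). Ifit2 had -1.58 ± 0.79 (SE) (adjusted p = 0.147) and Oasl2 0.48 ± 0.49 (SE) (adjusted p = 0.485). The Oas3 match to the response element lies upstream, at positions -75 to -66 (chr5:120777715-120777744, minus strand); this sequence and that of Isg15 were chosen after the values were seen.
Oas3: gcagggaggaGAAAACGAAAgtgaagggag

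In the group of ISG15 conjugation and ADP-ribose genes, Usp18 was the only one of 5 called, and the median log2 change was -0.40. Usp18 (ENSMUSG00000030107, chr6:121245906-121270917, plus strand), the protease that removes ISG15 and holds back the type I receptor, had 0.86, 3.47 and 1.9 CPM in Primary2, 0.944, 3.41 and 2.12 in Primary3, 16.8, 7.74 and 4.04 in Met2 and 1.62, 6.41 and 2.25 in Met3. Met2 lay above both primary groups, whereas Met3 replicates 1 and 3 lay inside their range. The log2 change was 1.43 ± 0.50 (SE), adjusted p = 0.0458. This was the weakest of the 10 calls and was lost in 12 of 21 alternative fits (0.0139 to 0.135), namely with the replicate number as a block (0.0541), with the ribosomal RNA share as a covariate (0.0621), with only the groups compared in the fit (0.059) and without Met1 replicate 1 (0.0534) or 3 (0.059), Primary2 replicate 1 (0.0891) or 3 (0.0902), Met2 replicate 1 (0.101) or 2 (0.0556), Primary3 replicate 1 (0.0981) or 3 (0.0869) or Met3 replicate 2 (0.135).

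Isg15 (ENSMUSG00000035692, chr4:156199424-156200818, minus strand), the ubiquitin-like protein itself, missed the threshold. It had 2.1, 4.31 and 9.72 CPM in Primary2, 4.31, 10.9 and 7.54 in Primary3, 15.1, 11.3 and 10.7 in Met2 and 8.41, 31.8 and 8.44 in Met3. Met3 replicate 2 was the highest of the 15 libraries and Primary2 replicate 1 the lowest. Met2 replicates 1 and 2 also lay above every primary library, and the other 3 metastasis libraries lay within the primary range. The log2 change was 1.15 ± 0.45 (SE) with an adjusted p of 0.0676. It passed by DESeq2 (0.0278), with the replicate number as a block (0.0458) and without Primary2 replicate 3 (0.0282) or Met3 replicate 1 (0.05), over a range of 0.0278 to 0.221. Parp9 and Dtx3l, whose products form a complex, and Parp14 lie side by side on chr16. Their log2 changes were -0.40 (adjusted p = 0.0813), -0.44 (adjusted p = 0.125) and -0.59 (adjusted p = 0.174), so none was called. Parp9 and Dtx3l overlap by 682 bases on opposite strands; the labels name a strand-keeping kit, but whether counting used the strand is not given in the sources used here. The Isg15 promoter holds 3 overlapping matches between positions -78 and -57, and its 250 bases upstream of the start (chr4:156200819-156201068, minus strand) read as follows.
Isg15: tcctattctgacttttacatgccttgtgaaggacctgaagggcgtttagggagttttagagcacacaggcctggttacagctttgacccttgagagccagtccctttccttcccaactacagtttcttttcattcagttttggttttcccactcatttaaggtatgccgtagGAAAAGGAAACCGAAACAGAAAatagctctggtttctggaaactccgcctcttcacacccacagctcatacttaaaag

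Gbp3 was the only one of 5 GTPases of the Mx and GBP families called. Gbp3 (ENSMUSG00000028268, chr3:142560026-142573209, plus strand), a guanylate-binding protein, had 1.4, 0.648 and 2.13 CPM in Primary2, 1.28, 0.45 and 0.53 in Primary3, 2.21, 3.48 and 1.91 in Met2 and 3.34, 3.92 and 2.1 in Met3. All Primary3 libraries lay below every metastasis library, while Primary2 replicate 3 lay among them. The log2 change was 1.45 ± 0.46 (SE) (adjusted p = 0.0301), lost without Primary2 replicate 1 (0.0549) or 2 (0.0672), Met2 replicate 2 (0.0632), Primary3 replicate 2 (0.0728) or 3 (0.0737) or Met3 replicate 1 (0.0528) or 2 (0.0636), over a range of 0.00893 to 0.0737. Its neighbours on chr3 were not called, with log2 changes of 0.96 for Gbp7 (adjusted p = 0.111) and -0.34 for Gbp2 (adjusted p = 0.648). GBP genes are close paralogs, and the share of reads that each received is uncertain. In the Gbp3 promoter 2 overlapping matches lie at positions -45 to -30 (chr3:142559992-142560021, plus strand).
Gbp3: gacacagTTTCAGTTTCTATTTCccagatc

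The restriction factors held both genes that fell. Samhd1 (ENSMUSG00000027639, chr2:157097533-157135265, minus strand), which hydrolyses the deoxynucleotides that DNA synthesis needs, had 101, 71.1 and 109 CPM in Primary2 and 102, 69.5 and 97.1 in Primary3. In metastases it had 40.4, 42.8 and 59 CPM in Met2 and 37.2, 44.8 and 44 in Met3. All 6 metastasis libraries lay below all 6 primary libraries, with a log2 change of -1.04 ± 0.15 (SE) and an adjusted p of 0.000412. The Samhd1 call held in all 21 alternative fits (2.33e-09 to 0.00205). Ifitm3 (ENSMUSG00000025492, chr7:141009586-141010770, minus strand), a membrane protein that blocks virus entry and the most abundant of the 38 transcripts, had 599.6, 516 and 586 CPM in Primary2 and 696, 597 and 568 in Primary3. It had 341, 44.6 and 8.3 CPM in Met2 and 11, 43.6 and 63 in Met3. The primary libraries were close to each other, and the metastasis libraries, all lower, differed among themselves by much more. Met2 replicate 1 was the nearest to the primaries and Met2 replicate 3 the farthest. The log2 change was -3.05 ± 0.73 (SE) (adjusted p = 0.00773), and -4.20 without Met2 replicate 1. Ifitm3 was called in each of the 20 alternative fits that gave an adjusted p (0.000367 to 0.0212), and DESeq2 gave none. Bst2 (tetherin, -0.22, adjusted p = 0.29), Rsad2 (viperin, 0.06, adjusted p = 0.958) and Cmpk2 (0.67, adjusted p = 0.495) were not called. Ifitm3 carries 2 matches to the response element just downstream of its RefSeq start, between positions 3 and 29 (chr7:141010714-141010743, minus strand).
Ifitm3: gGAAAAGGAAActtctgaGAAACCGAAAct

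Of the 4 tested genes in no other group, none was called. The group means for Rtp4 were 1.58 ± 2.09 CPM in Primary2, 2.75 ± 1.8 in Primary3, 7.57 ± 9.41 in Met2 and 3.7 ± 3.75 in Met3 (SD, n = 3). Met2 replicate 1, at 18.4 CPM, was far above the other Met2 libraries. Ifi35 varied little, with 27.4 ± 5.54 CPM in Primary2, 28.9 ± 2.15 in Primary3, 27.1 ± 3.21 in Met2 and 30.1 ± 1.79 in Met3. Ifi27 and Xaf1 had log2 changes of -0.15 ± 0.50 (SE) and 0.30 ± 0.44 (SE).

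Within round 2 (Met2 against Primary2) Samhd1 was lower and no other gene of the list was called. This is 1 of 36 (2.78%), against 11.8% of all genes (5.5% higher, 6.35% lower), and the median log2 change of the list was 0.42. The Samhd1 change was -0.98 ± 0.21 (SE) (adjusted p = 0.0137), lost with the ribosomal RNA share as a covariate (0.168), with only the groups compared in the fit (0.0899) and without Primary2 replicate 3 (0.0526), over a range of 0.000349 to 0.168. The count was 3 without Primary2 replicate 1, 4 without Met2 replicate 1 or replicate 2 and 0 without Primary2 replicate 3. Usp18 (2.19 ± 0.71 SE, adjusted p = 0.0632) and Ifih1 (1.10 ± 0.39 SE, adjusted p = 0.0826) did not pass there. They were among 6 of the 36 genes whose libraries did not overlap, 4 higher and 2 lower in Met2. The share of all genes without overlap is not reported here for this comparison, so that count is no result about the list.

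Within round 3 (Met3 against Primary3) Ifih1 and Gbp3 were higher and Samhd1 and Ifitm3 lower. These were 4 of 36 (11.1%), against 19.1% of all genes (8.12% higher, 11% lower), with a median log2 change of 0.36. Samhd1 changed by -1.09 ± 0.21 (SE) (adjusted p = 0.00507) and held in all 21 alternatives (2.45e-05 to 0.0296). Ifitm3 changed by -3.98 ± 1.08 (SE) (adjusted p = 0.0231), lost with the ribosomal RNA share as a covariate (0.0536) and without Primary3 replicate 3 (0.0524) or Met3 replicate 1 (0.0849) or 2 (0.0681). The range was 0.00329 to 0.0849 over the 20 alternative fits that gave Ifitm3 an adjusted p. Ifih1 changed by 1.38 ± 0.39 (SE) (adjusted p = 0.0279), lost with the ribosomal RNA share as a covariate (0.0714) and without Primary3 replicate 1 (0.0841), 2 (0.0961) or 3 (0.0517) or Met3 replicate 2 (0.112), over a range of 0.00521 to 0.112. Gbp3 changed by 2.04 ± 0.66 (SE) (adjusted p = 0.0482) and lost its call in 13 of 21 alternative fits (0.0154 to 0.156), namely with no filter on low counts (0.0662), with the replicate number as a block (0.0548), with the ribosomal RNA share as a covariate (0.127) and without Met1 replicate 1 (0.0615), Primary2 replicate 1 (0.0604) or 3 (0.052), Met2 replicate 2 (0.0521) or 3 (0.0512), Primary3 replicate 2 (0.151) or 3 (0.156) or Met3 replicate 1 (0.106), 2 (0.118) or 3 (0.0553). Its change was 2.65 without Primary3 replicate 1. The count for round 3 was 1 without Met3 replicate 2 or Primary3 replicate 3 and 2 without Primary3 replicate 2. The difference between the rounds was tested itself and edgeR called 0 of the 36 genes, against 0% of all 14925 genes. At an unadjusted p under 0.05 it had 1 gene, and DESeq2 called 0 genes of the list. The smallest adjusted p among the 36 was 0.33.

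Met1, the metastasis organoids of the round without a matching primary group, were set against all 6 primary libraries. This comparison shares those 6 libraries with metastasis against primary, so both sets of values stand side by side and their agreement is no independent evidence. Ifih1, Oasl1, Usp18, Trim25 and Mx1 were higher, and Samhd1 and Bst2 lower, which is 7 of 36 (19.4%) against 29.6% of all genes (14.9% higher, 14.7% lower). The median log2 change was 0.33, against -0.03 over all genes, and 10 of the 36 genes had no overlap of libraries, against 32.5% of all genes. Samhd1 had 41.4, 29.4 and 36.6 CPM in Met1, all below the primary libraries (log2 change -1.35 ± 0.19 (SE), adjusted p = 0.000728). Ifih1 had 16.2, 21 and 9.6 CPM, all above them (1.56 ± 0.32 SE, adjusted p = 0.00449). Both held in all 21 alternatives, over ranges of 2.81e-10 to 0.00655 and 0.000104 to 0.0346. Hepatocyte markers summed to 43.4 to 77.7 CPM in Met1 and to 7.07 to 27.4 CPM in the primary libraries, with 2 of 3 tested markers higher in Met1, and their part in these changes was not tested.

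Bst2 (ENSMUSG00000046718, chr8:71534255-71537456, minus strand), which tethers budding virus to the cell surface, had 35.9, 27.9 and 42.7 CPM in Met1, 59.4, 47.3 and 55.1 in Primary2 and 63.2, 69.1 and 74 in Primary3. All Met1 libraries were lower (log2 change -0.78 ± 0.19 (SE), adjusted p = 0.0109), a call lost with the ribosomal RNA share as a covariate (0.0648) and without Met1 replicate 2 (0.0688), over a range of 0.00113 to 0.0688. Bst2 in Met2 (54.5, 50.1 and 55.8 CPM) and Met3 (32.2, 64.5 and 55.8 CPM) overlapped Primary2. Oasl1 had 12.3, 128 and 29.9 CPM in Met1, of which replicate 1 lay within the primary range. Its log2 change of 2.73 ± 0.68 (SE) (adjusted p = 0.0111) was lost without Met1 replicate 2 (0.185), over a range of 0.000368 to 0.185. The change was 1.3 without that library and 4.35 with the ribosomal RNA share as a covariate. Usp18 had 11.1, 4.4 and 8.14 CPM in Met1, above every primary library (1.89 ± 0.57 SE, adjusted p = 0.0261). The Usp18 call was lost with the ribosomal RNA share as a covariate (0.123) and without Met1 replicate 1 (0.105) or 3 (0.0598), Primary2 replicate 1 (0.0532) or Primary3 replicate 1 (0.0537), over a range of 0.00735 to 0.123. Trim25 in Met1 (65.7 ± 8.29 CPM, SD, n = 3) had a log2 change of 0.75 ± 0.24 (SE) (adjusted p = 0.036) and lost its call in 9 of 21 alternative fits (0.00289 to 0.149), namely with the ribosomal RNA share as a covariate (0.0509) and without Met1 replicate 1 (0.0653), 2 (0.149) or 3 (0.0638), Primary2 replicate 1 (0.0725) or 2 (0.0685) or Primary3 replicate 1 (0.067), 2 (0.0616) or 3 (0.0548).

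Ifitm3 in Met1, at 116, 103 and 438 CPM, was below all primary libraries without passing the test (-1.44 ± 0.88 SE, adjusted p = 0.236). For the genes followed throughout, the Met1 levels were 9.37, 7.9 and 8.69 CPM of Irf7, 9.47, 24.5 and 10.8 of Isg15 and 0.852, 3.39 and 0.412 of Ifit1. Stat2 had 27.2, 20.7 and 20.9 CPM and Oas2 0.801, 0 and 0.686. Stat2 in Met1 lay above all 6 primary libraries (0.86 ± 0.32 SE, adjusted p = 0.0613), while Isg15 (1.22 ± 0.52 SE, adjusted p = 0.0923), Irf7 (0.77 ± 0.41 SE, adjusted p = 0.176), Oas2 (2.56 ± 1.18 SE, adjusted p = 0.117) and Ifit1 (1.5 ± 0.76 SE, adjusted p = 0.152) overlapped them. The number of genes called was 3 without Met1 replicate 2 and 4 without Met1 replicate 1 or Primary3 replicate 1.

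**Figure D4:**
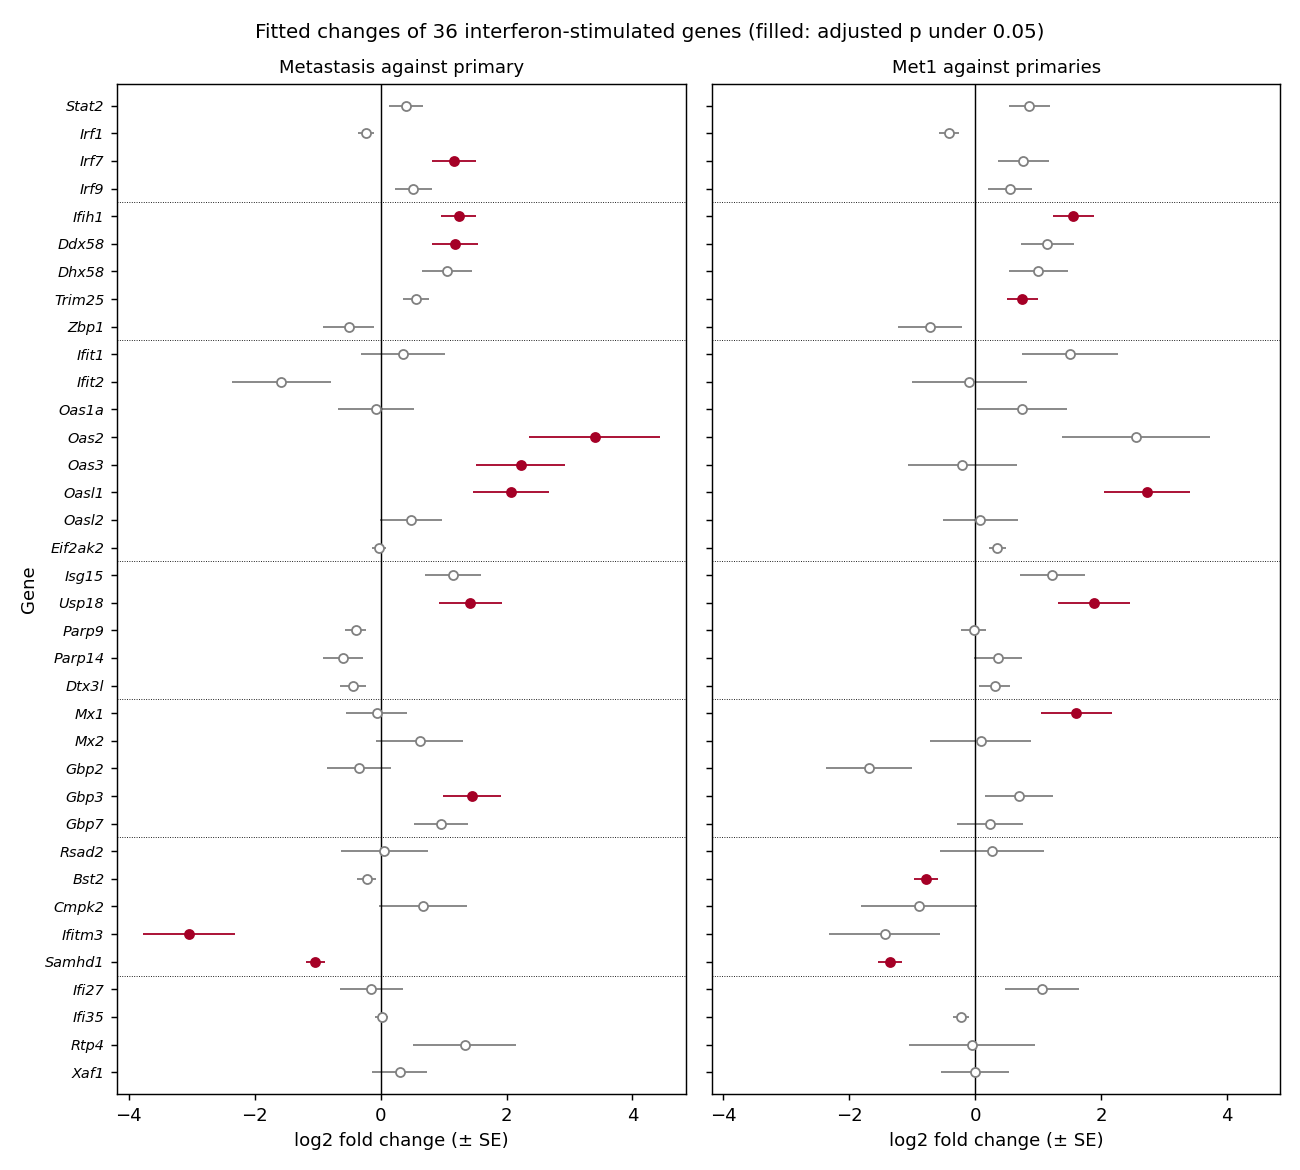
Points are fitted log2 fold changes of the 36 genes, left for metastasis against primary and right for Met1 against the same 6 primary libraries. Whiskers are the SE, worked back from the F statistic of the test. Filled points have an adjusted p under 0.05. Samhd1, Ifih1, Oasl1 and Usp18 are filled in both panels, Ifitm3, Irf7, Ddx58, Oas2, Oas3 and Gbp3 only on the left, and Bst2, Trim25 and Mx1 only on the right; that these differ between panels was not tested.

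Across transplant rounds, Met3 against Met1 called 1 of the 36 genes (2.78%), Mx1, against 23.4% of all genes (11.6% higher, 11.8% lower). The median log2 change of the list was 0.20, and 22 genes had a positive and 14 a negative sign. Mx1 (ENSMUSG00000000386, chr16:97447035-97462907, minus strand), a GTPase that traps viral nucleoprotein complexes, had 3.11, 7.79 and 2.7 CPM in Met1, 4.29, 0.58 and 1.03 in Met2 and 1.24, 0.577 and 1.26 in Met3. The primary groups had 1.13, 1.99 and 1.52 CPM in Primary2 and 0.741, 2.19 and 1.35 in Primary3. All 3 Met1 libraries lay above those of Met3, with Met1 replicate 2 the highest of the 15. The log2 change of -2.13 ± 0.71 (SE) (adjusted p = 0.0456) lost its call in 12 of 21 alternative fits (0.0124 to 0.189), namely with the replicate number as a block (0.0768) and without Met1 replicate 1 (0.0563), 2 (0.189) or 3 (0.0502), Primary2 replicate 1 (0.0543), 2 (0.0573) or 3 (0.0581), Primary3 replicate 2 (0.0535) or 3 (0.0609) or Met3 replicate 1 (0.0955), 2 (0.131) or 3 (0.0871). The change was -1.49 without Met1 replicate 2. In Met1 against the primaries, Mx1 changed by 1.60 ± 0.56 (SE) (adjusted p = 0.0484) and lost its call in 13 of 21 alternative fits (0.0139 to 0.314), namely with no filter on low counts (0.053), with the replicate number as a block (0.0742), with the ribosomal RNA share as a covariate (0.0798) and without Met1 replicate 1 (0.0628) or 2 (0.314), Primary2 replicate 1 (0.0955), 2 (0.0604) or 3 (0.0776), Primary3 replicate 1 (0.0952) or 3 (0.0842) or Met3 replicate 1 (0.0562), 2 (0.0527) or 3 (0.0586). That change was 0.96 without Met1 replicate 2.

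The genes followed throughout did not pass in Met3 against Met1. Isg15 had a log2 change of 0.12 ± 0.62 (SE) (adjusted p = 0.911), Irf7 0.76 ± 0.49 (SE) (0.27), Usp18 -1.20 ± 0.69 (SE) (0.221), Stat2 -0.48 ± 0.38 (SE) (0.382), Oas2 1.16 ± 1.18 (SE) (0.502) and Ifit1 -0.81 ± 0.90 (SE) (0.545). Oas3 had the largest change of the list, 2.77 ± 1.01 (SE), adjusted p = 0.0633, with Met3 above Met1 in all libraries. Met3 and Met1 did not overlap in 9 of the 36 genes, 5 higher and 4 lower in Met3. The share of all genes without overlap is not reported here for Met3 against Met1, so this count is no result about the list. Without Met1 replicate 1 or 2, Primary2 replicate 2, Primary3 replicate 2 or 3 or Met3 replicate 3 no gene was called, and without Met2 replicate 1 there were 3 and without Met2 replicate 3 there were 2. Met2 against Met1 gave 0 calls by edgeR among the 36 genes, where 16.3% of all genes were called (8.7% higher, 7.57% lower), with 3 genes at an unadjusted p under 0.05 and 2 called by DESeq2. It gave 1 without Primary2 replicate 1 or Met3 replicate 1 and 2 without Met2 replicate 1 or replicate 2. Met3 against Met2 gave 0 (0.275% of all genes), with 3 at an unadjusted p under 0.05 and 0 by DESeq2. Primary3 against Primary2 gave 0 (0% of all genes), with 1 at an unadjusted p under 0.05 and 0 by DESeq2.

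The genes of the list varied together between replicates of a group. Of the 630 pairs, 515 (81.7%) had a positive Pearson correlation of log2(CPM + 0.5) after each group's mean was taken out, with a median of 0.35, over 15 libraries, where the genes of a library share its depth and scaling. Over all 14925 genes the median was 0 and 49.9% of pairs were positive. Irf9 and Xaf1 (0.96), Irf9 and Dhx58 (0.89), Stat2 and Irf9 (0.87) and Irf7 and Oas3 (0.87) were among the closest pairs on different chromosomes. The closest pair was Ifi35 and Dtx3l (0.97), although Ifi35 varied little. Among genes near each other, the correlation was 0.83 for Oas2 and Oas3, 0.81 for Gbp3 and Gbp7 and 0.78 for Parp9 and Dtx3l, but -0.04 for Ifit1 and Ifit2 and -0.51 for Ifitm3 and Irf7. The 2 genes that fell stood outside this pattern, as the median correlation with the other genes was -0.02 for Ifitm3 and 0.08 for Samhd1. Mx1 (-0.19) and Oasl1 (0.01) stood outside it too. Ifi27 (0.62), Irf9 (0.59) and Stat2 (0.57) had the highest medians. Single libraries stood out in several groups. Met3 replicate 2 and Primary2 replicate 3 were each the highest of their group for 29 of the 36 genes. Primary2 replicate 1 and Primary3 replicate 1 were each the lowest of their group for 26. In Met2 the most genes for which 1 library was the highest was 16. The correlations were not taken without such libraries. They are descriptions and carry no p.

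Transcripts of the interferons themselves were near 0. The summed level of 11 ligand genes was 0.0463 to 0.193 CPM in the primary libraries, 0.106 to 0.501 in Met1, 0.335 to 1.62 in Met2 and 0.262 to 0.808 in Met3. None of them passed the filter on counts, 4 were at 0 in every library, and Ifnb1 had 2 counts in all. Of 15 receptor and signalling genes, 3 were higher and 2 lower in metastasis against primary (33.3%, against 30.4% of all genes). Jak2, a kinase of the interferon gamma receptor, was lower (-1.87, adjusted p = 9.91e-06), as was Ifnar1 (-0.36, adjusted p = 0.0376), a chain of the type I receptor. Tyk2, its kinase, was higher (0.69, adjusted p = 0.00131), as was Il10rb (0.69, adjusted p = 0.00149), a chain of the type III receptor. In Met3 against Met1, Jak2 (-1.20, adjusted p = 0.00286) and Ifnar2 (-2.62, adjusted p = 0.033) were lower and no gene of this group higher (13.3%, against 23.4% of all genes).

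Of 13 tested nucleic acid sensing genes outside the list, 2 were higher and 2 lower in metastasis against primary (30.8%, against 30.4% of all genes). The 2 lower ones were Ikbke, a kinase that activates Irf3 and Irf7 (-1.09, adjusted p = 0.00632), and Traf3, its adaptor (-0.37, adjusted p = 0.00658). The 2 higher ones are not reported here by name. Ikbke was also lower in Met3 against Met1 (-1.64, adjusted p = 0.0076). Of 14 negative regulators, 5 were higher and 2 lower (50%, against 30.4% of all genes), with Pias1 (0.49, adjusted p = 0.00191) and Rnf125 (-1.65, adjusted p = 0.00474) among those of the smallest p. Socs1, which blocks the receptor kinases, was higher in metastasis against primary (0.76, adjusted p = 0.023) and in Met3 against Met1 (1.79, adjusted p = 0.00353). Of 12 tested genes of MHC class I presentation and the immunoproteasome, B2m (-1.10, adjusted p = 0.000733) and Erap1 (-0.46, adjusted p = 0.0236) were lower and H2-D1 higher (0.53, adjusted p = 0.00202), which is 25%, against 30.4% of all genes. In Met3 against Met1, Psmb8 (3.59, adjusted p = 0.00716), Tap2 (2.09, adjusted p = 0.0182) and Psme2 (0.55, adjusted p = 0.0454) were higher and none lower (25%, against 23.4% of all genes).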

How the data were processed

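RNA of 15 organoid libraries was extracted with PureLink columns, selected for poly(A) and made into strand-keeping NEBNext libraries, per the labels' protocols. The authors quantified it with Salmon 1.3.0 on mm10, per the submitters' processing notes, and deposited estimated counts per gene, which are whole numbers throughout (0 fractional values). For the steps from transcripts to genes a description was not given in the sources used here. Each of the columns was assigned through the library name in a sample's description (0 unassigned). GENCODE M21 (GRCm38, the assembly of mm10) gave symbols and positions for 54166 of 54418 IDs. Groups follow the sample titles.

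edgeR 4.0.16 under R 4.3.3 (filterByExpr by group, TMM, quasi-likelihood F test, group means, all 15 libraries in 1 fit, common dispersion 0.118) tested 9 comparisons over 14925 genes, with 39493 removed, and Benjamini-Hochberg adjustment over these genes in each. Alternatives were DESeq2 1.42.0, a filter of at least 1 CPM in 3 libraries, no filter, the replicate number as a block, the ribosomal RNA share as a covariate, only the groups compared, and each library left out. The fitting script was tested on simulated data. No 2 libraries of a group had the same counts within sampling noise.

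Values in every library are given for genes called in metastasis against primary or in Met3 against Met1, for up to 4 of those called in each other comparison, and for Irf7, Isg15, Ifit1, Oas2, Usp18 and Stat2. From other lists up to 4 genes called in those 2 comparisons are named, and other genes named from them were chosen after their values were seen. Promoters are shown for the 4 called genes with the smallest p whose window holds the response element core. Some genes of the other lists are not reported here. The genes and lists were chosen with earlier results of these data known. Promoter sequences are RefSeq's (GRCm38.p6).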

Additional observations from a re-analysis of the deposited data

How the results depend on the processing

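In metastasis against primary, the count of 10 genes called was 9 to 12 under the 5 alternatives that keep all libraries, 9 with only the 4 groups compared, and 3 to 12 with 1 library left out. Met3 against Met1 (1 gene) gave 4 by DESeq2, 2 without a filter on counts and 3 with only the groups compared, and 0 to 3 with 1 library left out. Met2 against Primary2 (1 gene) gave 4 by DESeq2, 0 with the ribosomal RNA covariate, 0 with only the groups compared, and 0 to 4 with 1 library left out. Met3 against Primary3 (4 genes) gave 2 with the covariate, 7 with only the groups compared, and 1 to 6 with 1 library left out. Met2 against Met1 (0 genes) gave 2 by DESeq2 and 0 to 2 with 1 library left out. Met1 against the primaries (7 genes) gave 12 by DESeq2, 3 with the covariate, 11 with only the groups compared, and 3 to 9 with 1 library left out. Why these counts moved was not tested beyond the fewer libraries in a fit. The share of all genes called in each of these fits is not reported here. A moved count, here or in the sections above, is therefore no result about the list. Signs turned only for changes that were never called. With 1 library left out, the log2 change of Ifit1 in metastasis against primary ran from -0.31 (without Met3 replicate 2) to 0.98. In Met3 against Met1, Isg15 ran from -0.83 (without Met3 replicate 2) to 0.67, with -0.13 and -0.07 without Met1 replicates 1 and 3, and was -0.27 with the covariate. There Ifit1 ran from -2.14 to 0.48 (without Met1 replicate 2) and Oas2 from -0.32 (without Met3 replicate 2) to 1.67.

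Deviations of same-numbered libraries from their group mean correlated between -0.13 and 0.27, and no pair of groups had all 3 numbers above 0.1. For Primary2 and Primary3 all 3 were positive (0.22, 0.121 and 0.069). With 3 libraries in a group, these values cannot decide whether the replicate numbers pair the samples. With the replicate block, the counts were 9 in metastasis against primary, 1 in Met3 against Met1, 1 in Met2 against Primary2, 4 in Met3 against Primary3 and 7 in Met1 against the primaries. Equal counts did not mean the same genes. Under the block Mx1 lost its call in Met3 against Met1 (adjusted p = 0.0768) and in Met1 against the primaries (0.0742). Gbp3 lost its call in Met3 against Primary3 (0.0548). Depth differed widely between genes, from 85790 counts of Ifitm3 to 93 of Mx2 over the 15 libraries among those tested, and the SE in metastasis against primary was 0.73 for Ifitm3 and 0.69 for Mx2.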
